A study of Homo sapiens with 12 samples.

Results

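The 154 genes described here lie on the long arm of human chromosome 9, in a stretch of 45.1 Mb in which transcript levels were higher in SETDB1 knockout cells than in wild-type cells. They were chosen by 2 criteria: a GENCODE 29 start and end within chr9:72351425-117415070 (GRCh38) and a mean raw count of at least 20 over the 6 non-directional gene tables. Of the 716 genes annotated in the stretch, 353 had no read in these tables, 209 had reads but a lower mean, and 154 were kept, of the 12418 genes of the whole genome with such a mean and 58735 genes in the tables. By type, 144 of the 154 are protein coding, 3 are lincRNAs, 2 are antisense RNAs, 3 are transcribed unprocessed pseudogenes and 2 are processed pseudogenes. No expressed gene of the chromosome crossed either boundary.

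The series compared RNA from HAP1 cells with wild-type SETDB1 and from their SETDB1 knockout derivative, with no further treatment named for either genotype. HAP1 is a near-haploid adherent line obtained from a chronic myelogenous leukaemia. Both genotypes were grown in the same medium, and each was sequenced as 3 libraries from a non-directional kit, which does not record strand, and as 3 libraries from a directional kit, 12 libraries in all. The libraries are numbered as biological replicates, but nothing states that they came from separate clones, so the p-values measure the spread between these libraries only. How the knockout line was made, and whether it is 1 clone, is not given in the sources used here.

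SETDB1 is a histone H3 lysine methyltransferase that deposits a repressive mark over transposable elements and a set of genes. A block of neighbouring genes that moves together is described by how even the change is across its members, by where it begins and ends, and by which members keep to another level. The genes of this stretch have little in common besides position. They include DNA repair and cell cycle genes, a group of zinc finger genes, enzymes, membrane transporters and signalling receptors.

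The non-directional tables held 8921959 to 10199215 reads in genes per library and the directional ones 532021 to 676691. In every directional library, 94.6% of the counted reads had been placed in no gene, which is 9560642 to 12147468 reads per library, so these libraries were not shallow but few of their reads were assigned to genes. SETDB1 itself stood at 60.1 ± 4.28 CPM (counts scaled to 1000000 and for library composition; SD, n = 3) in wild-type and 11.5 ± 0.643 CPM in knockout non-directional libraries, with no overlap. Of the 6 haematopoietic genes examined, HBG1 and HBG2 had no read, GATA1, PTPRC and CD34 had at most 2 reads in any non-directional library, and LMO2 had 1 to 13. The adherent-cell gene VIM stood at 233 and 226 CPM, whereas CD44 fell from 57.0 to 8.74 CPM, SPARC from 40.7 to 1.67 CPM and LGALS1 from 35.9 to 21.6 CPM. The 3 knockout non-directional libraries differed from one another by no more than sampling noise in each pair (chi-square per degree of freedom 0.956, 0.979 and 0.991 over 13559 to 13604 genes), and the wild-type pairs gave 1.03, 1.82 and 2.00. They are kept as 3 libraries, as labelled, and the spread among the knockout libraries covers counting error only.

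The rise over the stretch was similar in size for most of its genes. The median log2 fold change (knockout over wild type, edgeR) of the 154 genes was 0.40, or 1.32-fold, with an interquartile range of 0.25 to 0.64. A total of 136 genes lay above 0 and 18 below. The 12264 expressed genes outside the stretch had a median of 0.00, with 49.5% above 0. These non-directional fold changes picked out the stretch, so they are given as a description with no test.

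Counted by the call across all genes (edgeR quasi-likelihood test, adjusted p under 0.05), 119 members were called higher, 9 lower and 26 neither. Among the 13778 genes tested, 25.5% were called higher and 25.9% lower. All 3 knockout libraries lay above all 3 wild-type libraries for 122 members and below them for 8, while the groups overlapped for 24. The same separation held upwards for 28.1% and downwards for 27.9% of the genes tested. Since the rule used this contrast, nothing further is read from these counts.

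Level by library is the simplest view of the shared shift. Taking each gene against its wild-type mean, the median over the 154 genes was 0.01, -0.01 and 0.01 in the 3 wild-type non-directional libraries on the log2 scale. It was 0.40, 0.40 and 0.43 in the 3 knockout libraries. This separation of the groups follows from how the stretch was chosen and is given as a description. The members together took 1.03 ± 0.0110% of all CPM (SD, n = 3) in wild type and 1.32 ± 0.00237% in the knockout. The expressed genes of chromosome 9 before the stretch (151) and after it (195) had knockout means of -0.01 and 0.00 on the same scale.

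**Figure D1:**
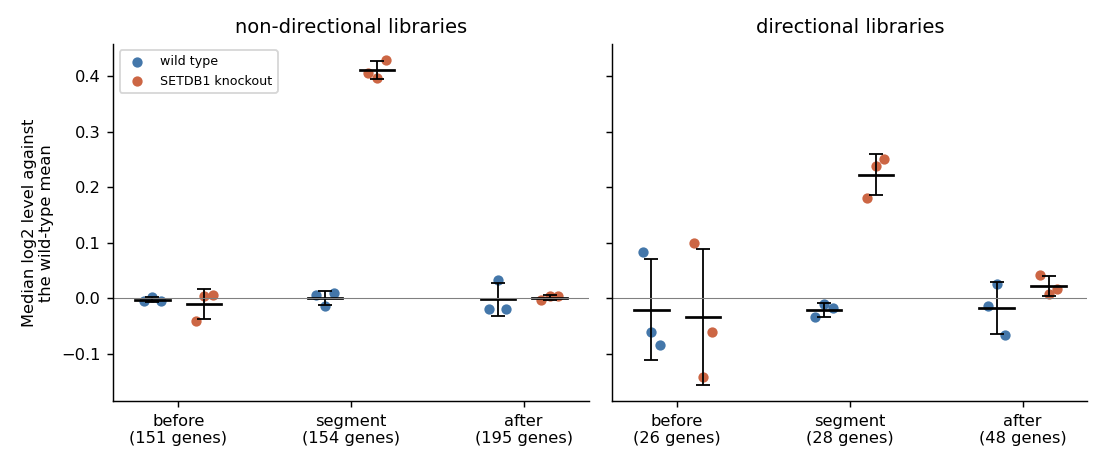
Median log2 level of the stretch and of the rest of chromosome 9 in each library, against the wild-type mean of each gene; points are libraries, horizontal lines means and bars SD (n = 3), with the number of genes under each group. The knockout libraries sit near 0.41 for the stretch in the non-directional kit and near 0.22 in the directional kit, and the genes before and after it stay near 0 in both.

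Most members lay close to the median. A total of 91 of 154 genes (59.1%) lay within 0.25 of the median on the log2 scale. Over all 12418 genes with a mean count of at least 20, the quartiles were -0.18 and 0.17 around a median of 0.00. Most of those genes thus also lay within 0.25 of their median. Among the 60 members with a mean count of at least 500, for which counting error is small, 57 lay above 0, the median was 0.40 and the interquartile width 0.27. The 4698 genes of that level in the whole genome had a median of 0.00 and a width of 0.24. The scatter of well-measured members about their own median was therefore of the same size as that of other genes about 0. At mean counts of 20 to 100 the interquartile width was 0.93 over 36 members and 0.70 over 2772 genes.

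The medians changed little with strand or size. Members on the plus strand had a median log2 fold change of 0.39 (78 genes) and those on the minus strand 0.45 (76 genes). By gene length, the medians were 0.34 for the 51 shortest, 0.43 for the 51 in between and 0.42 for the 52 longest. By wild-type CPM per kb of exon, the medians were 0.54 for the 51 lowest, 0.39 for the 51 in between and 0.39 for the 52 highest. The 35 members whose exons overlap a gene on the opposite strand had a median of 0.47, against 0.40 for the other 119.

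In windows of 5 Mb counted from the start of the stretch, the median log2 fold change was lowest in the first, at 0.13 over 13 genes. The following 8 windows gave 0.35, 0.39, 0.35, 0.49, 0.43, 0.39, 0.43 and 0.51, over 6 to 32 genes each. In the sixth and seventh windows, which run from TDRD7 to RAD23B, all 36 genes lay above 0. The longest unbroken run of neighbours above 0 held 49 genes, from HABP4 to EPB41L4B. The largest distance between neighbouring members was 2.53 Mb, between RNF20, a histone H2B ubiquitin ligase at a log2 fold change of 0.39, and the condensin subunit gene SMC2 at 0.36.

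**Figure D2:**
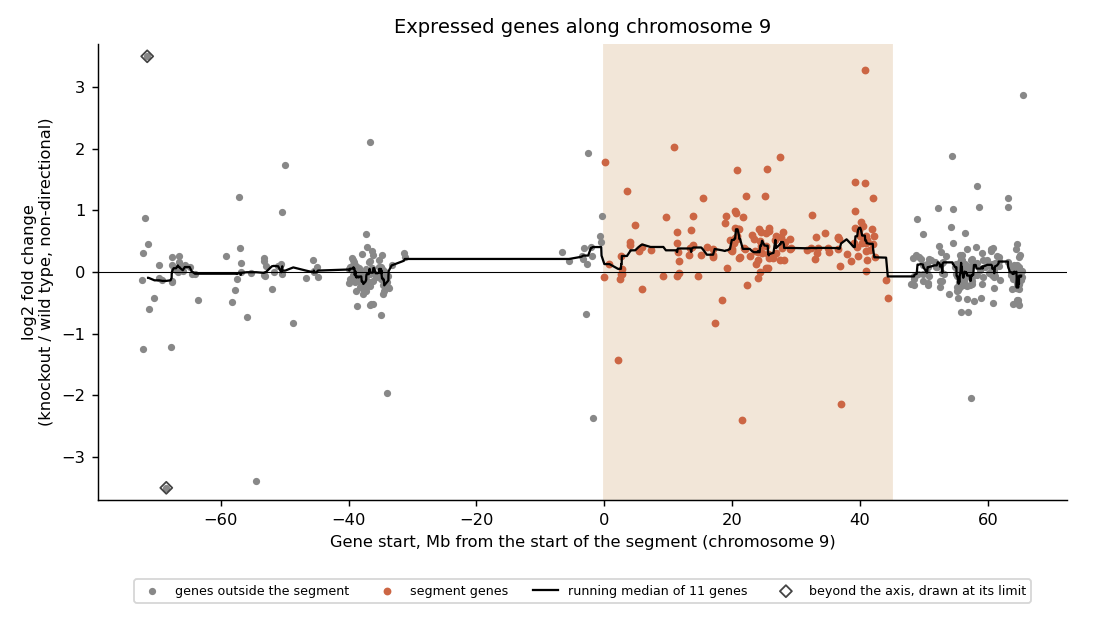
Log2 fold change (knockout over wild type, non-directional) of each expressed gene of chromosome 9 against the distance of its start from the start of the stretch, in Mb; the shaded band is the stretch, the line a running median of 11 genes, and diamonds mark genes beyond the axis. The line stays near 0.4 through much of the band, dips near its start, and drops below 0 at its end. Within the band it rises to 0.69 near 20.7 Mb and 0.72 near 40.0 Mb, and falls to 0.27 near 25.7 Mb.

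The start of the stretch did not coincide with the start of the higher levels. Of the 6 expressed genes just before it, 5 were higher in the knockout: SMC5 at a log2 fold change of 0.41, KLF9 at 0.27, CEMIP2 at 0.58, ABHD17B at 0.48 and C9orf85 at 0.90. The channel gene TRPM3 stood at -2.37. Over all 14 expressed genes that start within 10 Mb before the boundary, the median was 0.30 and 12 lay above 0. The 137 genes further before had a median of -0.02. The window of 10 Mb was chosen after these values were seen.

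The first members inside the boundary were mixed. ZFAND5, a zinc finger gene, had 2883, 2335 and 2730 reads in wild type and 2489, 2642 and 2709 in the knockout. Its log2 fold change was -0.09 ± 0.03 (SE), and it was called lower (edgeR adjusted p = 0.021), with overlapping groups. TMC1, a subunit of the hair-cell mechanotransduction channel, stood at 1.79, the phospholipid-binding ANXA1 at 0.13, the nuclear receptor gene RORB at -1.43, the magnesium channel gene TRPM6 at -0.12 and C9orf40 at -0.03. The 10 members before RFK, the riboflavin kinase gene, had a median of 0.01 with 5 above 0. From RFK to TMEM268 there were 142 members, with a median of 0.43 and 131 above 0. These inner limits were picked after the values were seen. The running median of 11 genes stayed at or above 0.20 for 145 genes, from OSTF1 to ASTN2.

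The end was more abrupt. The last members of the shared level were AKNA at 0.46, WHRN at 1.20, ATP6V1G1, a subunit of the vacuolar proton pump, at 0.58 and TMEM268 at 0.24. A gap of 1.78 Mb without another member followed, with 2 members beyond it. ASTN2 stood at 14.4 ± 1.80 and 13.2 ± 1.28 CPM, with overlapping groups, and the ubiquitin ligase gene TRIM32, which lies within ASTN2 on the opposite strand, at 40.9 ± 0.472 and 30.4 ± 0.789 CPM, wild type first (SD, n = 3), with every knockout library below every wild-type one. The next expressed gene, CDK5RAP2 at -0.19, starts 2.97 Mb after the boundary. It was followed by MEGF9 at 0.23, FBXW2 at -0.07, B3GNT10 at -0.20, PHF19 at -0.11 and CNTRL at 0.27. The 45 genes within 10 Mb after the boundary had a median of 0.11, with 27 above 0, and the 150 further on a median of -0.01.

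Genes near the count threshold had few reads and scattered values. Just below it were TMOD1, with a mean of 16.8 reads and a log2 fold change of -0.50, AL161910.1, with 16.2 reads and -0.33, IDNK, with 15.7 reads and -0.25, and NIPSNAP3B, with 15.2 reads and 1.65. Just above it were TMEFF1, with 21.3 reads and 0.20, KIF27, with 22 reads and 0.33, AL353743.1, with 22.5 reads and 0.38, and BARX1, with 24.3 reads and -2.40.

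By function, most lists of members sat close to the common level. The lists were drawn up with earlier results of these data known, and 54 members belong to none. Beside the calls of each list, 119 of the 154 members and 25.5% of all genes tested were called higher. Since the rule used this contrast, the list calls are a description only. All 12 measured genome maintenance genes lay above 0, with a median log2 fold change of 0.35, and 11 were called higher. RAD23B, which helps recognise damaged DNA in nucleotide excision repair, stood at 384 CPM in wild type and 503 in the knockout. SMC2 stood at 192 and 247 CPM, and the Fanconi anaemia gene FANCC at 40.7 and 48.5 CPM. XPA, another excision repair gene, lay furthest from the median and was not called, at 10.9 and 11.4 CPM.

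Of the 15 RNA processing and translation genes, 14 were called higher, beside 25.5% of all genes tested, and the median was 0.38. The isoleucyl-tRNA synthetase gene IARS had 717 ± 8.32 CPM in wild type and 916 ± 11.7 CPM in the knockout. TDRD7, a Tudor domain gene of germ granules, was furthest out, at 9.22 and 21.6 CPM. HNRNPK, an abundant RNA-binding protein gene, was the exception. It had 10435, 8887 and 9748 reads in wild type and 9915, 9812 and 10318 in the knockout, at 1022 ± 19.2 and 1008 ± 8.74 CPM, and the groups overlapped. Its log2 fold change was -0.02 ± 0.02 (SE), well under the values of its neighbours in level.

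The members of highest level per kb of exon in wild type, besides HNRNPK at 200 CPM per kb, were ANP32B at 301, the redox protein gene TXN at 178, the cyclin-dependent kinase subunit gene CKS2 at 170, the serine biosynthesis gene PSAT1 at 170 and IARS at 96.9. Their log2 fold changes were 0.29, 0.29, 0.25, 0.41 and 0.35, each with an SE of at most 0.04. These 5 well-counted genes all lay above 0, and none lay above 0.41.

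Among 16 metabolic genes, 14 were called higher, beside 25.5% of all genes tested, and all lay above 0, with a median of 0.42. PTGR1, a reductase of prostaglandin and leukotriene metabolism, was furthest from the common level, at 40.1 and 79.6 CPM. Of 19 trafficking and membrane genes, 15 were called higher and 4 were not called, with a median of 0.51. GOLM1, a Golgi membrane protein gene, was at 189 and 250 CPM, and ABCA1, the cholesterol efflux transporter, at 19.3 ± 0.275 and 36.6 ± 2.28 CPM.

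Zinc finger and other transcription factor genes were more spread. Of 19, 14 were called higher, 2 lower and 3 neither, with a median of 0.36 and a range from -2.40 to 1.86. KLF4, a pluripotency factor, stood at 171 and 214 CPM. Of 13 receptor and signalling genes, 7 were called higher and 4 lower, with a median of 0.28, beside 25.5% and 25.9% over all genes tested. TGFBR1, a TGF-beta receptor gene, stood at 80.4 and 116 CPM. The 4 called lower were PTPN3, GADD45G, SYK and TRIM32.

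The lists of extracellular matrix and of germline or tissue-restricted genes had 3 expressed members each. The proprotein convertase gene PCSK5, the lysosomal protease gene CTSL (49.7 ± 3.58 and 113 ± 3.43 CPM) and the collagen gene COL27A1 were all called higher, with a median of 1.19. TMC1 and FSD1L were called higher and ASTN2 was not called.

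**Figure D3:**
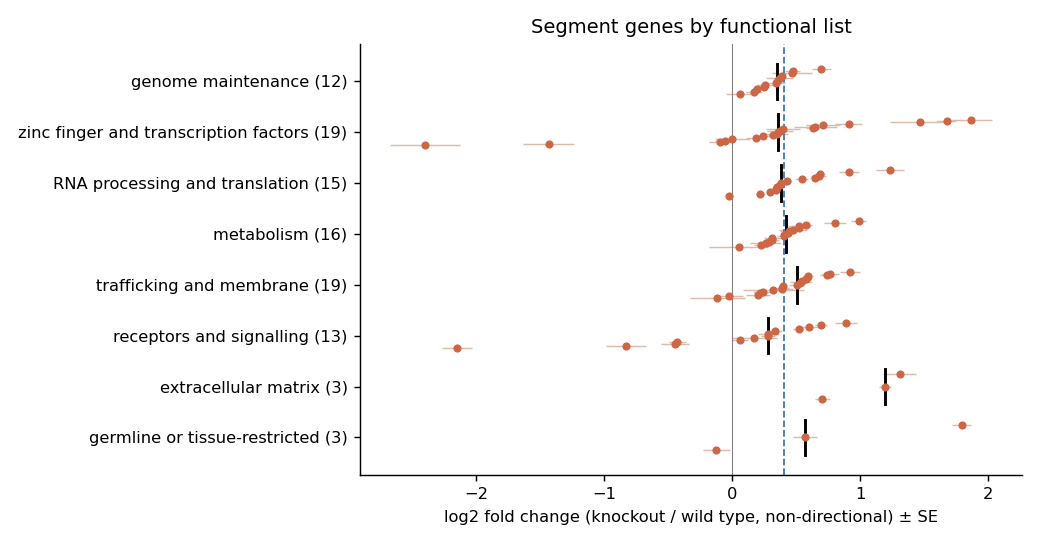
Log2 fold change (knockout over wild type, non-directional) ± SE of the members by functional list, with the number of members in brackets; black bars are list medians and the dashed line is the median of all 154 genes. List medians lie between 0.28 and 0.51 except for the 2 lists of 3 genes, and the lowest values are in the transcription factor and the receptor and signalling lists.

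A total of 29 members departed from the median by at least 0.5 on the log2 scale, 19 above and 10 below. By at least 1, 8 lay above and 4 below. The share of all genes at these distances was not counted. The interquartile width was 0.39 over the members and 0.36 over all 12418 genes with a mean count of at least 20. The spread of the members was thus of similar size. Of the 105 members whose SE was under 0.1, 9 departed by 0.5 or more, and the other 20 departing members had larger errors.

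FAM225B, a lincRNA gene, lay furthest above. It had 8, 6 and 5 reads in wild type and 65, 69 and 63 in the knockout, at a log2 fold change of 3.28 ± 0.26 (SE). Its neighbour FAM225A had 19, 18 and 17 reads in wild type and 50, 56 and 49 in the knockout. In both genes the knockout libraries lay clear of the wild-type ones. FAM225A and FAM225B share a family name, and how reads matching both were counted was not examined. Their separate values are therefore uncertain.

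FRMD3, a FERM domain gene, had 26, 13 and 28 reads in wild type and 93, 104 and 90 in the knockout, at 2.03 ± 0.18. NR4A3, an orphan nuclear receptor and immediate-early gene, had 33, 20 and 27 reads and then 95, 86 and 125, at 1.86 ± 0.17. These 2 genes had few reads in wild type, while the next 2 were better counted and departed as clearly. TMC1 had 147, 134 and 128 reads in wild type and 481, 484 and 521 in the knockout. FOXE1, a forkhead factor of thyroid development, had 163, 148 and 149 reads and then 499, 490 and 555, at 1.68 ± 0.07. The remaining genes of the 10 furthest above were SUSD3 at 1.66, ZNF483 at 1.47, FAM225A at 1.45, PCSK5 at 1.31 and the antisense gene PCAT7 at 1.24, which overlaps FBP1 and FBP2. All 10 had knockout libraries above every wild-type library.

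BARX1, a homeobox gene, lay furthest below, with 43, 39 and 40 reads in wild type and 9, 5 and 10 in the knockout, at -2.40 ± 0.27. PTPN3, a tyrosine phosphatase gene, had 247, 191 and 244 reads and then 52, 51 and 58, at -2.15 ± 0.12. RORB had 64, 55 and 49 reads and then 18, 24 and 23. GADD45G, a stress-response gene, had 73, 69 and 75 reads and then 37, 46 and 45, at -0.83 ± 0.16. In these 4 genes every knockout library lay below every wild-type library.

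Smaller departures downwards were the tyrosine kinase gene SYK at -0.45, TRIM32 at -0.43, the centrosomal gene CEP78 at -0.27, C9orf3 at -0.21, ASTN2 at -0.12 and TRPM6 at -0.12. CEP78 was well counted, with 1308, 1047 and 1236 reads in wild type and 1016, 990 and 1114 in the knockout, or 126 ± 7.16 and 105 ± 4.43 CPM. Of the 10 genes furthest below, RORB and TRPM6 lay 2.15 and 2.37 Mb from the start of the stretch and ASTN2 and TRIM32 at 44.1 and 44.3 Mb, near its end, while the other 6 lay between 5.88 and 37.0 Mb.

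**Figure D4:**
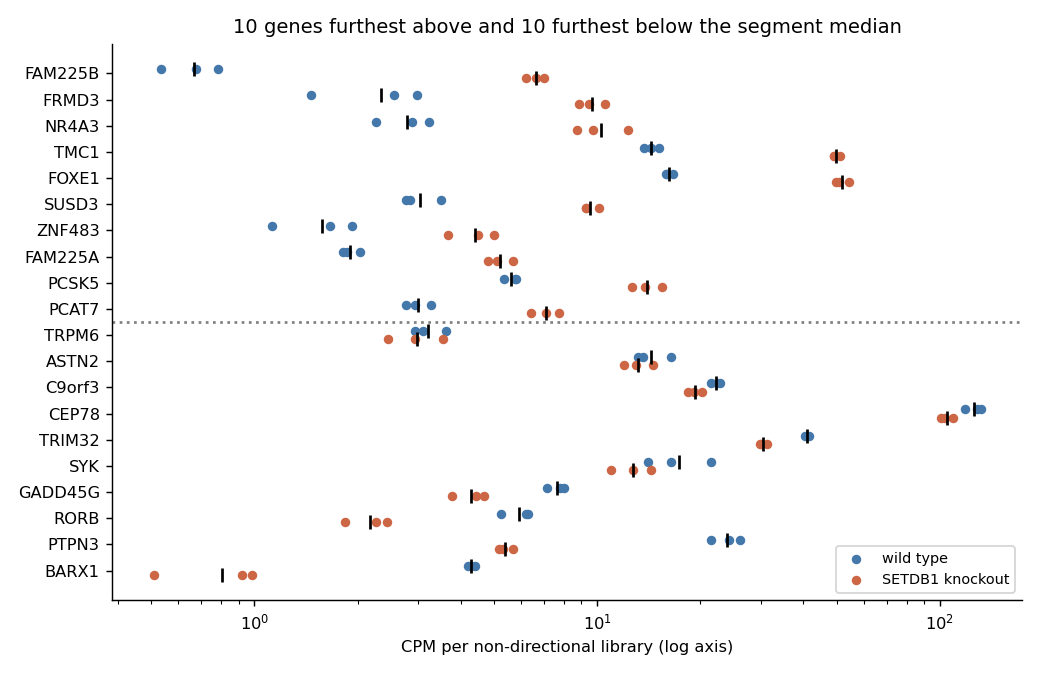
CPM in each non-directional library (log axis) of the 10 members furthest above and the 10 furthest below the median of the stretch, divided by the dotted line; points are libraries and vertical ticks group means (n = 3). The groups are apart for the 10 upper genes and for BARX1, PTPN3, RORB, GADD45G, TRIM32, CEP78 and C9orf3. They overlap for TRPM6, ASTN2 and SYK.

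Promoters are shown for genes that lay far from the common level. The sequences are the 250 bases before the RefSeq start (GRCh38.p14), 5′ to 3′ on the gene's strand, for the 3 genes furthest above and the 3 furthest below that have an entry, with each CpG in capitals. FAM225B is at chr9:113111678-113111927 (minus strand), FRMD3 at chr9:83538402-83538651 (minus strand), NR4A3 at chr9:99821635-99821884 (plus strand), PTPN3 at chr9:109417784-109418033 (minus strand), RORB at chr9:74497085-74497334 (plus strand) and GADD45G at chr9:89604762-89605011 (plus strand).
FAM225B: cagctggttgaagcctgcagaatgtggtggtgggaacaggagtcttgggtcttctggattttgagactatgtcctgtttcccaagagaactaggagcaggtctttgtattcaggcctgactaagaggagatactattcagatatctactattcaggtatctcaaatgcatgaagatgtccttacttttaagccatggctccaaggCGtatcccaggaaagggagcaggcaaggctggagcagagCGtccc
FRMD3: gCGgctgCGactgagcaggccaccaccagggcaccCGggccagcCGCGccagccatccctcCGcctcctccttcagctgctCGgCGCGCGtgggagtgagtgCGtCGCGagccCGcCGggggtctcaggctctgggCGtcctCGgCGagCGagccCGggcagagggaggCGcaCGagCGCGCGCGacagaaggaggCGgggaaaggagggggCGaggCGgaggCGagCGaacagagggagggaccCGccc
NR4A3: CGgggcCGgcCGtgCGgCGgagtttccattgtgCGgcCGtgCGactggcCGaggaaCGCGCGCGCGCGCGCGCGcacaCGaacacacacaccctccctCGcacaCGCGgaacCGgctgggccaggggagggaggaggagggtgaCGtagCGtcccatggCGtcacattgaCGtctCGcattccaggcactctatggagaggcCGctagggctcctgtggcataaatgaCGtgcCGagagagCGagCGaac
PTPN3: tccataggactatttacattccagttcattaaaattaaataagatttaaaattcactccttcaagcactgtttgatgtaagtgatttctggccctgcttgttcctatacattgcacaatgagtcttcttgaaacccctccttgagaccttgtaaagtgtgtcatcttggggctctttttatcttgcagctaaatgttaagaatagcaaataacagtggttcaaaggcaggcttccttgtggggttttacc
RORB: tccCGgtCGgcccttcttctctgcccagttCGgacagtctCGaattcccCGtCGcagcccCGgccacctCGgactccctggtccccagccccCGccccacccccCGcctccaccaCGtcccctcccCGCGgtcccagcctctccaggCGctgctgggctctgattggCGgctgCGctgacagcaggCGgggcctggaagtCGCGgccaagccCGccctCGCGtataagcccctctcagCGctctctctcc
GADD45G: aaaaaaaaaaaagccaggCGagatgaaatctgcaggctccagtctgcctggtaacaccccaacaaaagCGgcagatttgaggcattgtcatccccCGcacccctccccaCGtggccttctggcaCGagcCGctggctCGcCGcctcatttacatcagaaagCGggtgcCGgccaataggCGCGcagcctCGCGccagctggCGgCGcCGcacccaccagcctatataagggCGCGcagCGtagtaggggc

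The 6 promoters differed in base composition within both directions. FRMD3 held 32 CpGs and NR4A3 33, with 76.0% and 68.0% G or C, whereas FAM225B held 2 CpGs. RORB held 23 and GADD45G 20, whereas the PTPN3 window held none and was 38.0% G or C. The RefSeq start of PTPN3 lies 80530 bases inside the GENCODE gene, counted from its 5′ end, so that window belongs to an inner start. The other 5 starts lay within 177 bases of the GENCODE one.

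Across all members, promoters rich and poor in CpG differed little in log2 fold change. Entries were found for 126 of the 154 genes, with a median of 22.5 CpGs in 250 bases. The 9481 promoters of genes with a mean count of at least 20 had a median of 22, and all 35116 promoters of the table a median of 11. In 3 sets of 42 members by CpG number, the median log2 fold change was 0.45 with 0 to 18 CpGs, 0.46 with 19 to 27 and 0.41 with 28 to 46. On either strand, the GC box GGGCGG was present in 73.8% of member promoters, 69.4% of those of expressed genes and 42.6% of all. It was found in 79.4% of the 102 member promoters within 0.5 of the median, 58.8% of the 17 above and 28.6% of the 7 below. The CCAAT box CCAAT was present in 35.7% of member promoters, 35.5% of those of expressed genes and 32.0% of all. In the same order, the E-box CACGTG was present in 10.3%, 9.05% and 6.34%, and the letters TATAAA in 5.56%, 4.73% and 10.7%. The E2F-type letters TTCCCGC were present in 9.52%, 9.32% and 5.52%. For each of these, the members lay closer to the expressed genes than to all promoters. Such matches describe the letters only.

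The directional libraries were not used to choose the stretch, so they offer the same contrast in other libraries. Since only 5.23% to 5.30% of their counted reads had been assigned to genes, 28 members could be tested, and 126 had too few assigned reads. Of the 28, 7 (25%) were called higher in the knockout and 0 lower (edgeR quasi-likelihood test, adjusted over all 4745 genes), while 7.67% of all genes tested were called higher and 8.54% lower. DESeq2 called 4 higher and 0 lower. The median log2 fold change of the 28 genes was 0.23, against 0.00 over all genes tested, -0.04 over 26 tested genes before the stretch and 0.05 over 48 after it. By library, the median against the wild-type mean was -0.03, -0.01 and -0.02 in wild type and 0.18, 0.24 and 0.25 in the knockout. The groups again did not overlap.

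Which strand these counts come from bears on every value in them. Members whose exons overlap a gene on the opposite strand had a median directional CPM of 0.151 times their non-directional CPM (35 genes), against 0.0756 times for the other 119. Of the 28 tested members, 16 had such an overlap, with a median log2 fold change of 0.42 and 5 calls. The 12 without one had a median of 0.13 and 2 calls. The directional CPM of AL354920.1 was 8725% of its non-directional CPM, that of CENPP 2358% and that of IPPK 1823%, against 4.76% for IARS and 2.85% for HNRNPK. The strand setting of the authors' counting is not given in the sources used here, and whether it was the reverse of the kit's was not tested. If it was, the directional value of a gene counts reads antisense to it, so none of the calls below can be read as a change of the named gene's own transcript.

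The overlapping pairs gave mixed values. AL354920.1, an antisense gene partly overlapping UBQLN1, had 133, 181 and 126 directional reads in wild type and 233, 187 and 214 in the knockout. Its directional log2 fold change was 0.58 ± 0.10 (edgeR adjusted p = 7.59e-07). Its non-directional value was -0.07 ± 0.24, while UBQLN1, which codes for a ubiquitin-like proteasome shuttle, stood at 0.47. TRIM14 and NANS, the sialic acid synthase gene, overlap each other. The directional counts gave 0.33 ± 0.07 for TRIM14 (edgeR adjusted p = 0.000182) and 0.59 ± 0.17 for NANS (edgeR adjusted p = 0.00878). The non-directional values were the other way round, 0.66 for TRIM14 and 0.22 for NANS. CENPP, a centromere protein gene that overlaps NOL8, had 183, 207 and 140 directional reads and then 278, 226 and 228, at 0.52 ± 0.09 (edgeR adjusted p = 1.35e-06). CENPP also overlaps IPPK and AL157827.2. The non-directional values of CENPP, NOL8 and IPPK, 0.37, 0.34 and 0.48, are too close to tell which gene the count follows. In all 4 genes the 3 knockout libraries were the higher ones.

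Among the other overlapping members, FKBP15 was called and is given below, and the rest were not called. FAM120A stood at 0.53 ± 0.30 in the directional libraries, beside 0.22 for itself and 0.70 for its partner FAM120AOS in the non-directional ones, and FAM120AOS at 0.02 ± 0.10. UBQLN1 stood at 0.36 ± 0.23, and TSTD2 at 0.27 ± 0.33, between its own value of 0.64 and that of TMOD1, -0.50. Of the rest, 4 members lay below the non-directional values of both genes of the pair: IPPK at -0.11 (0.48 for itself and 0.37 for CENPP), PRPF4 at -0.03 (0.34 and 0.47 for CDC26), LINC00476 at -0.43 (0.54 and 0.34 for ERCC6L2) and CDC14B at -0.07 (0.70 and 0.19 for HABP4). FAM120AOS was also below both. The directional values therefore did not follow the partner in every pair.

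KLF4 had the largest difference in the directional libraries and has no annotated exon on the opposite strand. It had 26, 23 and 30 directional reads in wild type and 74, 69 and 49 in the knockout, or 44.3 ± 11.1 and 109 ± 18.4 CPM, with no overlap. On the log2 scale this was 1.33 ± 0.19 (edgeR adjusted p = 1.07e-08), against 0.32 ± 0.03 in the non-directional libraries. The difference between the kits was not tested. FKBP15, whose exons overlap a gene on the opposite strand, was called at 0.51 (edgeR adjusted p = 0.0183), beside 0.51 in the non-directional libraries. The directional CPM of FKBP15 was 182% of its non-directional CPM, so the limit on strand applies to its value too. ECPAS, a proteasome adaptor gene, was called at 0.86 (edgeR adjusted p = 0.0491), beside 0.46. The calls of NANS, FKBP15 and ECPAS did not hold under every alternative: DESeq2 gave adjusted p values of 0.14, 0.19 and 0.31, and leaving out single libraries gave up to 0.063, 0.14 and 0.27.

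Among the members not called, HNRNPK stood at 0.48 ± 0.27 and ZFAND5 at -0.07 ± 0.31 in the directional libraries. SEMA4D, a semaphorin gene, was the only member whose libraries separated in the opposite direction, with 69, 71 and 57 directional reads in wild type and 56, 41 and 48 in the knockout. In CPM its knockout libraries all lay below its wild-type libraries, while in the non-directional tables they lay above. Its wild-type directional CPM was 108, against 21.2 in the non-directional libraries, so the limit on strand applies to this value too.

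**Figure D5:**
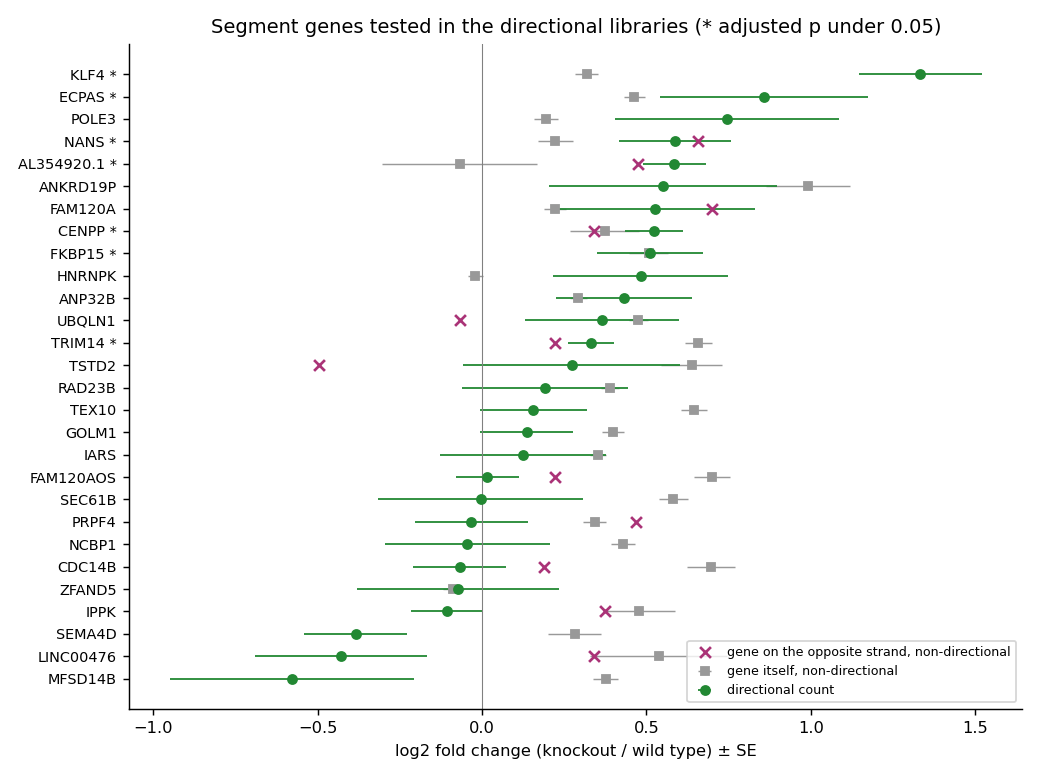
Log2 fold change (knockout over wild type) ± SE of the 28 members tested in the directional libraries (circles), the same gene in the non-directional libraries (squares), and, where known, the gene on the opposite strand in the non-directional libraries (crosses); stars mark adjusted p under 0.05. The directional values of AL354920.1, NANS, TRIM14 and FAM120A lie nearer to the cross than to the square, and those of UBQLN1, TSTD2 and CENPP nearer to the square. Those of IPPK, PRPF4, LINC00476, CDC14B and FAM120AOS lie below both, and KLF4 lies far to the right of its square.

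The stretch also holds 93 long interspersed element (L1) loci counted by the authors, in the non-directional libraries only, and 80 of them had reads. L1 elements are retrotransposons, and long copies are among the targets of SETDB1. As reads per 1000000 gene counts (RPM), the loci of the stretch summed to 82.7, 83.2 and 80.7 in wild type and 205, 197 and 206 in the knockout, or 82.2 ± 1.32 and 203 ± 4.75 (SD, n = 3), a 2.47-fold difference. Over all 6437 loci of the genome the ratio was 1.42. On the scale of the deposited values, which had been divided by a factor per library, the log2 ratio of the stretch was 0.95 in place of 1.30.

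One locus made up much of that sum. An L1PA7 copy at chr9:72710787-72717219, in an annotated interval of TMC1, had 4, 10 and 6 reads in wild type and 559, 591 and 617 in the knockout. Without it the sums were 81.4 and 143 RPM, a 1.76-fold difference. TMC1, which lies around this copy, is also among the 10 members furthest above the median. The most read locus, an L1PA3 copy in IARS, had 346, 280 and 307 reads and then 442, 375 and 431. An L1PA2 copy in PTPDC1, a phosphatase gene at a log2 fold change of 0.89, had 11, 7 and 3 reads and then 55, 75 and 50. In each of these 3 loci the knockout reads were above the wild-type reads in every library.

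Loci outside annotated genes were few in reads and also higher. The 45 of them summed to 8.99 ± 1.14 RPM in wild type and 16.6 ± 1.53 in the knockout. The 18 members that hold one of the loci had a median log2 fold change of 0.54, against 0.40 for the other 136, and 3 of the 18 departed above by 0.5 or more, as did 16 of the 136. Below the median, 1 of the 18 and 9 of the 136 departed by as much. Reads of an L1 copy inside a gene may also belong to that gene's own transcript, and the 2 were not told apart.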

How the data were processed

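Gene counts were deposited by the authors as whole numbers for each library. Per the labels' processing notes, the tools included Trim Galore 0.4.4, STAR 2.6.0a, SAMtools 1.9, Picard 2.23.8 and HTSeq 0.11.1, on hg38. All 58735 gene identifiers matched GENCODE 29. The deposited L1 values are a signal, the reads per locus divided by 1 factor per library. Divided by the smallest value of each table, 100% of those above 0 were whole within 0.01, and the recovered reads were used. An edgeR test of those reads over 816 loci of the genome called 248 higher and 35 lower.

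Counts were fitted with edgeR 4.0.16 (R 4.3.3; TMM scaling, quasi-likelihood F-test, Benjamini-Hochberg adjustment at 0.05), separately for each kit, over genes passing filterByExpr (minimum count 10, minimum total 15). DESeq2 1.42.0 was an alternative. The fit was tested on simulated data. Summaries were made in Python 3.11.15 with pandas 2.3.3. The members and the gene lists were chosen with earlier results of these data known. Genes named were the 6 next to each edge on either side, the 10 furthest above and below the median, the 6 of highest wild-type level per kb, the member of highest wild-type CPM and the furthest member of each list, the members called in directional libraries, and SETDB1; others named were chosen after their values were seen. Same-numbered libraries of the 2 genotypes did not deviate together, so no block was used. Reads had no molecular identifiers, and the intervals cover only the spread between these libraries. A count of 3 reads corresponds to 0.294 to 0.336 CPM in the non-directional and 4.43 to 5.64 CPM in the directional libraries.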

Additional observations from a re-analysis of the deposited data

Results flagged for a closer look

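SEMA4D was singled out because its libraries separated in opposite directions in the 2 kits: its log2 fold change was -0.38 in the directional libraries (edgeR adjusted p = 0.0838, not called) and 0.28 in the non-directional ones. All 3 knockout libraries lay below all 3 wild-type libraries in the first and above them in the second. The difference between the kits was not tested. Its directional CPM was 512% of its non-directional CPM, and the directional reads may be antisense to the gene, so the 2 values may not measure the same transcript.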

How the results depend on the processing

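The median log2 fold change of the 154 genes stayed between 0.39 and 0.43 under every alternative. It was 0.43 with a mean count of at least 50, 0.43 for the members from RFK to TMEM268, a limit added after seeing the data, and 0.40 to 0.42 when single libraries were left out. Summing the 3 knockout libraries into 1 gave 0.41. The number of members called higher ranged from 112 (DESeq2, and also with a mean count of at least 50) to 122. Departing members above the median were 11 with a mean count of at least 50 and 8 at a distance of 1. Those below were 6 without 5 Mb at each end of the stretch and 4 at a distance of 1. Scaling on genes outside this stretch and a second one on chromosome 1 gave a median of 0.39.

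In the directional libraries the calls were 4 with DESeq2, 2 among members without opposite-strand overlap, and 4 to 6 when single libraries were left out, with 4 without knockout replicate 2 and 0 lower calls in each. The median was 0.33 with no filter on low counts, 0.13 without the overlapping members, and 0.20 to 0.33 when single libraries were left out. The log2 ratio of L1 reads was 0.95 from the deposited values, 0.89 outside annotated genes and, in an alternative added after seeing the data, 0.82 without the locus in TMC1; leaving out single libraries gave 1.29 to 1.32. The cause of these shifts was not tested.

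Same-numbered libraries did not deviate together (correlations of -0.0012, -0.0045 and -0.025 in the non-directional and -0.026, 0.014 and 0.0077 in the directional libraries). With the replicate number as a block, the medians were 0.40 and 0.25, the higher calls 119 and 6, the departing members 19 and 11, and the L1 log2 ratio 1.30; ECPAS lost its call (edgeR adjusted p = 0.0585). The fold changes of the named genes in the non-directional libraries moved by less than the spread between libraries in all 610 refits. Most of these refits left out 1 of 3 libraries of a genotype, which can hardly move a group mean by that much. This outcome was therefore largely fixed in advance and is no measure of stability. In the directional libraries 61 of 77 refits of the 7 called genes kept the call, and KLF4, AL354920.1, CENPP and TRIM14 kept theirs in each. Few directional reads were assigned to genes, 5.23% to 5.30% of those counted, which left 126 members untested.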
